A study of Mus musculus with 96 samples.

Results

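The 8 genes described here are the glucocorticoid receptor gene Nr3c1, the enzyme gene Hsd11b1 and 6 liver genes known to respond to glucocorticoids, namely Fkbp5, Tsc22d3, Sgk1, Tat, Mt1 and Mt2. They were taken by name from 8 tables of expression values, and all 8 were found among the 24066 genes of those tables. Poly(A) RNA of C57BL/6J mouse liver had been sequenced in 96 libraries, as 8 arms of 12 libraries, with 3 libraries at each of zeitgeber time (ZT) 0, 6, 12 and 18 h. Mothers were housed either on a schedule whose phase was advanced by 8 h every 5 days, during pregnancy only (shifted), or on a fixed cycle with 12 h each of light and darkness (control).

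The arms were livers of shifted and control pregnant mothers, livers of their fetuses, and livers of male offspring of shifted or control mothers. Offspring were placed from 4 weeks of age on a high-fat or a low-fat diet, fed freely for 12 weeks. No allele, drug or transgene was involved, and every mother carried a pregnancy. The sources used here do not give fetal age, fetal sex, litter or the day of sampling after the last advance. Nothing stated that the 3 libraries of a group came from separate animals, so p-values measure only the spread between these libraries, which may be technical.

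Glucocorticoids leave the adrenal gland in a daily rhythm that, in nocturnal rodents, is highest around the start of the dark phase. In the liver cell the receptor waits in a chaperone complex, binds its steroid, enters the nucleus and switches genes of glucose, amino acid and metal handling on or off. Hsd11b1 encodes the enzyme that makes active glucocorticoid from its inactive form inside the cell. Fkbp5 encodes a co-chaperone that lowers the receptor's affinity for the hormone, Tsc22d3 an anti-inflammatory protein (GILZ), Sgk1 a kinase, and Tat the tyrosine aminotransferase that starts tyrosine breakdown. Mt1 and Mt2 encode metallothioneins, small zinc-binding proteins that are induced by zinc as well as by glucocorticoids.

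The stretches of 250 bases before 3 annotated starts are shown because they hold matches to sequence words known for glucocorticoid or metal response. All are from RefSeq promoters of build GRCm38.p6, on the plus strand, written 5′ to 3′. In the Sgk1 stretch (chr10:21993640-21993889) capitals mark the 15-letter glucocorticoid response element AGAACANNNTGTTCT. In the Mt2 stretch (chr8:94172368-94172617) and the Mt1 stretch (chr8:94178839-94179088) capitals mark metal response element cores, TGCGCNC or TGCACNC on either strand.
Sgk1: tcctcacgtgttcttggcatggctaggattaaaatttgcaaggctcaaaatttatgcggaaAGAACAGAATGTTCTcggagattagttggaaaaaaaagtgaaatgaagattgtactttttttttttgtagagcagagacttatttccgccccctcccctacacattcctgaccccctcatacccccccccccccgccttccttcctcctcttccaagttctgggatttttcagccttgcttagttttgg
Mt2: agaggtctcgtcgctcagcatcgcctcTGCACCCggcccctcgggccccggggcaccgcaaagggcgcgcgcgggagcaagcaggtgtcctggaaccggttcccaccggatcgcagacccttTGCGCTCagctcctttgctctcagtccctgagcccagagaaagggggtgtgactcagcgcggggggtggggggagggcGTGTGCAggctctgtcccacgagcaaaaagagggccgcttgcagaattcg
Mt1: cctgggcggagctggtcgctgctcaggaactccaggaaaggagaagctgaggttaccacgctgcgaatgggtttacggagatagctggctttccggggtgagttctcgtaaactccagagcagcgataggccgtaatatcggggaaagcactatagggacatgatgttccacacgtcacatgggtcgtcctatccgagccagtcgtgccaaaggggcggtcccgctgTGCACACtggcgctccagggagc

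Of the 8 genes, 7 had RefSeq promoter entries, 14 in all, each running from 250 bases before the start to 50 bases after it. The full glucocorticoid element occurred in 3 of 32851 promoters (0.00913%), and 1 of those belonged to Sgk1, which has 6 annotated starts. It lies at positions -189 to -175 from that start, and it contains a pair of the half-site TGTTCT, one on each strand. At least 4 metal response cores, the number found in the 300 bases of Mt2, occurred in 0.517% of promoters, and at least 3, the number in Mt1, in 1.97%. The printed Mt1 stretch holds only 1 core, and at least 1 occurred in 25.7% of promoters. The other Mt1 cores lie at positions 3 to 9 and 21 to 27, after the start and outside that stretch. Only 1 of the 14 entries carried the full glucocorticoid element, and the other members' windows did not hold these letters. Such matches are letters in a window and were not tested as binding sites. In the GENCODE M21 annotation Mt2 and Mt1 lie in the same direction on chromosome 8, with 5513 bases between the end of Mt2 and the start of Mt1.

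Expression was deposited by the authors as FPKM, fragment numbers set relative to transcript length and library size, which allows levels of different genes to be compared. Read counts are not in these tables, so depth is unknown and no counting interval can be given. Libraries were rescaled within mothers, fetuses or offspring, and tests used limma on log2(FPKM + 1) with Benjamini-Hochberg adjustment over all genes tested. Folds are on that scale and understate changes of weakly expressed genes. Each of the 8 genes passed the filter of 1 FPKM in 3 libraries in every comparison. All 7 hepatocyte markers averaged at least 1 FPKM in every arm. In 5 offspring libraries the median correlation with the other libraries of the arm was under 0.95. One of them, control high-fat ZT0 replicate 1, listed at 0 a total of 1267 of the 8539 genes that had 1 FPKM or more in the other 11 libraries, while no other library of that arm listed more than 2 such genes at 0. In 7 fetal libraries, 4 shifted and 3 control, hepatocyte markers were low. Their mean log2(FPKM + 1) was at most 9.77, whereas it was at least 10.34 in the other 17.

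The receptor gene had the narrowest span of arm means of the 8, and Tat and the metallothionein genes had the widest. Mean Nr3c1 was 9.40 ± 1.65 FPKM in shifted mothers, 8.34 ± 1.63 in control mothers, 10.8 ± 1.27 in shifted fetuses and 9.08 ± 1.64 in control fetuses (SD, n = 12 each). In offspring it was 9.96 ± 1.18 on high-fat diet after a shifted pregnancy and 5.85 ± 1.49 on high-fat diet after a control pregnancy. On low-fat diet it was 7.75 ± 3.14 FPKM after a shifted and 7.81 ± 1.56 after a control pregnancy. The order ran from shifted fetuses down to control high-fat offspring, and neighbours in it differed by less than the larger of their SDs.

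Hsd11b1 was abundant in adult liver, at 859 ± 152 FPKM in shifted and 707 ± 88.7 in control mothers, and at means between 334 and 401 FPKM in the 4 offspring arms. Fetal livers had 69.6 ± 39.4 FPKM in the shifted and 83.3 ± 44.6 in the control arm. Tat had arm means of 413 to 750 FPKM in adults but 2.61 ± 2.94 FPKM in shifted and 4.99 ± 4.69 FPKM in control fetuses. No adult library had less than 194 FPKM of Tat and no fetal library more than 16.1 FPKM.

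Mt1 divided the arms differently, with high levels in fetuses and mothers alike. It had 1390 ± 512 FPKM in shifted and 1640 ± 847 FPKM in control fetuses, and 1390 ± 711 and 893 ± 433 FPKM in shifted and control mothers. In offspring the 4 arm medians lay between 11.5 and 26.0 FPKM and the highest single library had 155 FPKM. The lowest mother or fetus library had 343 FPKM, so the ranges did not overlap. Mt2 showed the same split, with at least 230 FPKM in every mother and fetus library and at most 57.7 FPKM in every offspring library. Fkbp5 averaged 31.1 and 31.8 FPKM in shifted and control mothers, 22.6 and 25.1 in shifted and control fetuses, and 4.70 to 8.14 in offspring arms. Sgk1 averaged 15.6 and 28.4 FPKM in shifted and control mothers against 4.40 to 6.59 FPKM in every other arm. Tsc22d3 was lowest in fetuses, at 12.5 ± 3.13 FPKM in the shifted and 14.2 ± 4.11 in the control arm, with means of 29.7 to 55.9 FPKM in adults. Mothers were pregnant females and offspring were males, and stages were scaled separately, so age, sex, pregnancy and scaling cannot be told apart in these levels, which are given without a test.

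**Figure D1:**
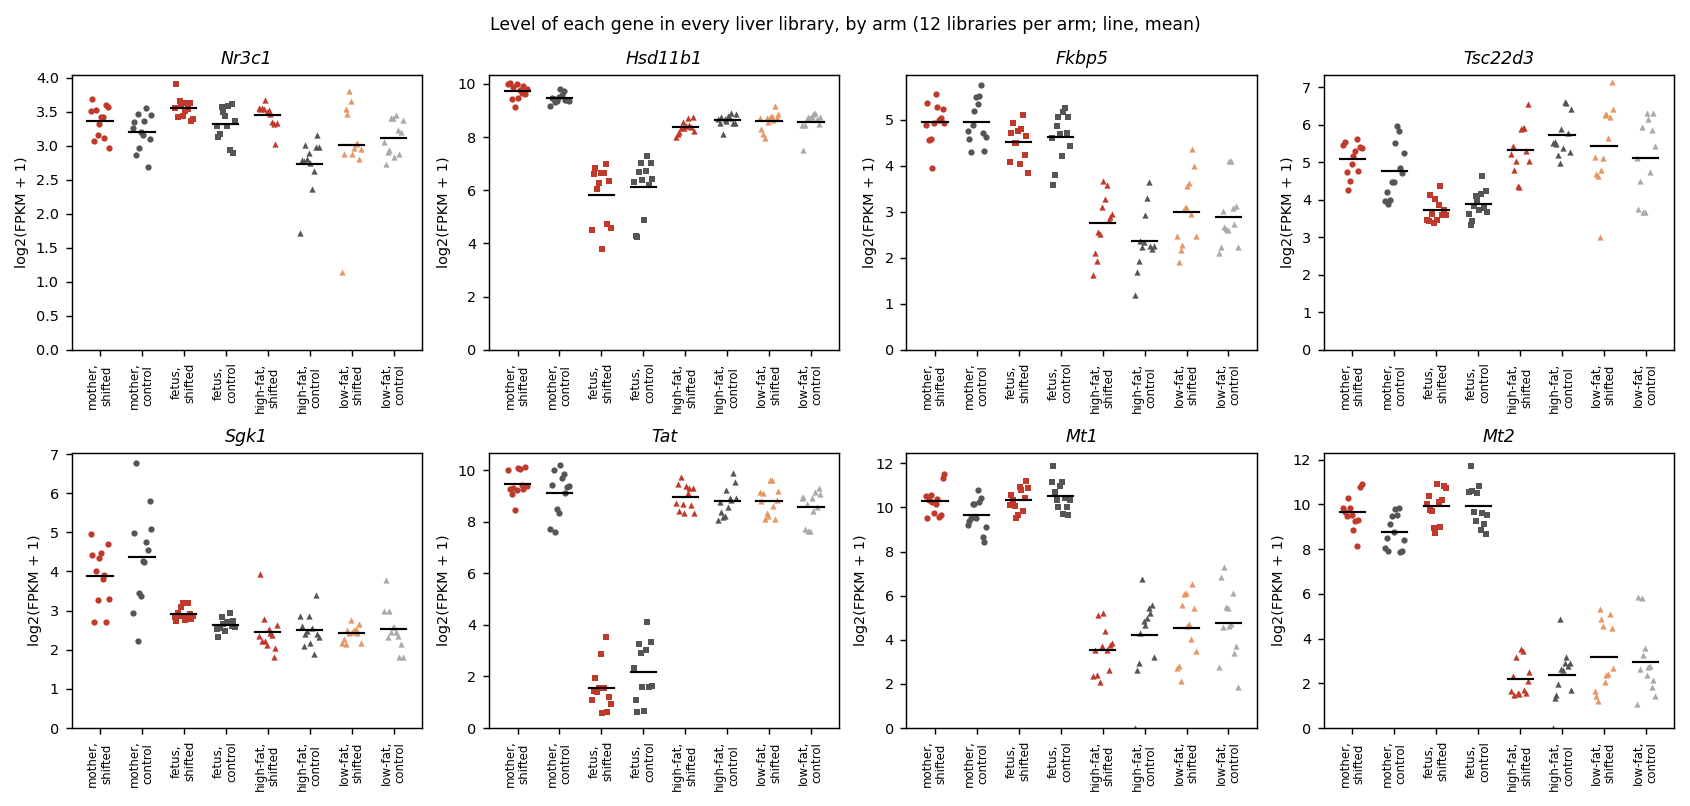
Level of each of the 8 genes as log2(FPKM + 1), 1 point per liver library and 12 per arm, with a line at the arm's mean. Mt1 and Mt2 stand high in mothers and fetuses and low in offspring, and Tat and Hsd11b1 stand low in fetuses. Nr3c1 has the narrowest span of arm means, with the lowest in control high-fat offspring.

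The first comparison asked whether the shifted schedule altered these genes in the mothers themselves. Both metallothionein genes were higher in shifted than in control mothers, averaged over the 4 times. These were 2 of the 8 genes, in a comparison where 7.91% of all genes tested were called, 3.49% as higher. Mt2 ranged over 281, 762 and 1910 FPKM (lowest, median and highest) in shifted mothers and 230, 396 and 919 FPKM in control mothers. The arms overlapped, but the shifted median was nearly as high as the upper control libraries. The difference was 0.89 on the log2 scale (SE 0.17, 1.85-fold, adjusted p = 0.0055 by limma), and 9 of 12 shifted libraries were above the control mean of the same time. Mt1 ranged over 735, 1260 and 2970 FPKM in shifted mothers and 343, 741 and 1760 FPKM in control mothers. Its difference was 0.66 (SE 0.19, 1.57-fold, limma adjusted p = 0.0419, 8 of 12 libraries). Leaving out any 1 of 17 of the 24 mother libraries ended the Mt1 call, with adjusted p up to 0.0723, as did 4 of 6 alternatives (adjusted p up to 0.0702), whereas none of these ended that of Mt2.

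The other members did not pass in mothers. Hsd11b1 had 859 FPKM in shifted and 707 FPKM in control mothers, a log2 difference of 0.27 with a 95% interval of 0.08 to 0.46 and a limma adjusted p of 0.0812. It passed without shifted ZT0 replicate 3 (limma adjusted p = 0.0455) or shifted ZT6 replicate 2 (0.0176). Tsc22d3 had a difference of 0.34 (interval 0.10 to 0.57, adjusted p = 0.0776), and passed with GC and length trends removed (0.38, adjusted p = 0.0473). It also passed without shifted ZT0 replicate 3 (0.40, limma adjusted p = 0.0392) or shifted ZT18 replicate 1 (0.39, limma adjusted p = 0.0378). For Tat it was 0.38 (interval -0.04 to 0.79), for Nr3c1 0.16 (interval -0.05 to 0.37) and for Fkbp5 -0.01 (interval -0.24 to 0.22). Sgk1 was too variable to place, at -0.48 with an interval of -1.18 to 0.22, since the 3 control libraries at ZT0 had 6.67, 30.5 and 109 FPKM. The means over 4 times average estimates of opposite sign at single times. Fkbp5, for example, differed by 0.40 at ZT0 (limma adjusted p = 0.41) and by -0.70 at ZT6 (limma adjusted p = 0.302). No member was called as lower in shifted mothers at a single time.

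In shifted mothers none of the 8 genes changed over the day, against 0.716% of all genes tested, and the smallest of their limma adjusted p-values was 0.359. In control mothers 4 of the 8 did, against 4.28% of all genes. Tsc22d3 had 43.4, 46.0 and 26.0 FPKM at ZT0, 18.3, 21.7 and 30.0 at ZT6, 35, 38.5 and 48.6 at ZT12, and 26.2, 41.7 and 40.8 at ZT18 in shifted mothers, where the ZT0 and ZT12 libraries overlapped. In control mothers it had 14.6, 17.5 and 13.8 FPKM at ZT0, 14.9, 21.1 and 21.4 at ZT6, 45.0, 62.3 and 56.3 at ZT12, and 27.7, 25.2 and 37.1 at ZT18 (limma adjusted p = 0.00131 over the 4 times). There all 3 libraries at ZT12, the start of the dark phase, were above every library of the other times. Fkbp5 averaged 30.6, 22.4, 38.6 and 32.9 FPKM over ZT0, ZT6, ZT12 and ZT18 in shifted mothers, against 22.6, 36.1, 46.0 and 22.6 FPKM in control mothers. Its change over the day in control mothers had a limma adjusted p of 0.0172, or up to 0.0669 without ZT12 replicate 2 or replicate 3.

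The metallothionein genes stood highest at ZT18 in shifted mothers and at ZT12 in control mothers. Mt2 had 902, 800 and 714 FPKM at ZT0, 1250, 920 and 724 at ZT6, 465, 618 and 281 at ZT12, and 638, 1750 and 1910 at ZT18 in shifted mothers. In control mothers it had 265, 363 and 243 FPKM at ZT0, 553, 714 and 428 at ZT6, 872, 739 and 919 at ZT12, and 230, 243 and 339 at ZT18 (limma adjusted p = 0.003). The time of the highest control mean was thus the time of the lowest shifted mean. Mt1 averaged 1070 FPKM at ZT12 and 2130 FPKM at ZT18 in shifted mothers, against 1460 FPKM at ZT12 and 435 FPKM at ZT18 in control mothers, where it changed over the day (limma adjusted p = 0.00456).

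A direct test of whether the daily profile differed between the schedules was passed by Mt2, with an adjusted p of 0.00424 by limma. It was 1 of 8 genes, against 1.65% of all genes tested. Tsc22d3 (adjusted p = 0.0558), Mt1 (adjusted p = 0.059) and Fkbp5 (adjusted p = 0.152) did not pass, so a rhythm called in one arm and not in the other is not shown to differ for them. The core clock genes moved with it, since 12 of 15 passed the same test, and the part of the clock in these profiles was not tested.

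At single times, 2 of the 8 genes were higher at ZT0 in shifted mothers (1.37% of all genes called, 0.694% as higher) and 2 at ZT18 (3.4% called, 1.06% as higher). At ZT18 Mt2 averaged 1430 ± 693 FPKM in shifted and 271 ± 59.2 FPKM in control mothers, a log2 difference of 2.27 (SE 0.34, 4.81-fold, limma adjusted p = 0.000576, n = 3 each). Mt1 averaged 2130 ± 1160 FPKM in shifted and 435 ± 114 FPKM in control mothers at that time, with a difference of 2.11 (SE 0.38, 4.32-fold, limma adjusted p = 0.00334). The 3 shifted libraries had 802, 2610 and 2970 FPKM of Mt1, against 398, 343 and 562 in control mothers, so the groups did not overlap although 1 shifted library was far below the other two. At ZT0 Tsc22d3 averaged 38.5 ± 10.9 FPKM in shifted and 15.3 ± 1.92 FPKM in control mothers, a difference of 1.24 (SE 0.24, limma adjusted p = 0.0118). Mt2 at ZT0 averaged 805 ± 94.2 FPKM in shifted and 290 ± 64.0 FPKM in control mothers, 1.48 higher (SE 0.34, limma adjusted p = 0.0343). Leaving out single libraries ended the ZT0 calls in 3 of 24 fits for Tsc22d3 (control replicates 1 and 3, shifted replicate 2) and in 6 of 24 for Mt2 (each of the 6 libraries of ZT0). That of Mt2 was also lost without the filter (adjusted p = 0.0595) and with GC and length trends removed (adjusted p = 0.111). No member passed at ZT6 (0.27% of all genes called) or at ZT12, where limma called 0 genes in all and 624 had an unadjusted p under 0.05.

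**Figure D2:**
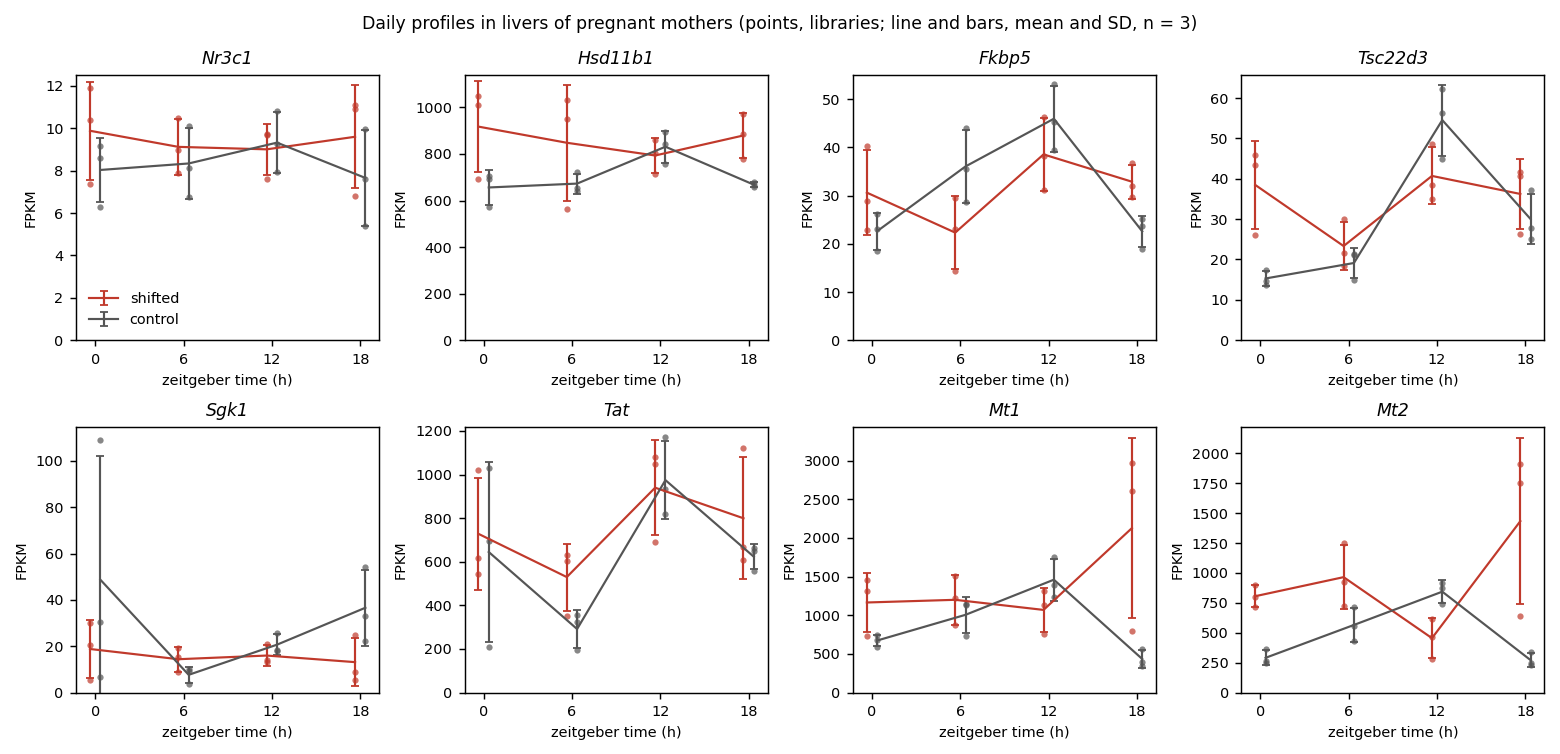
FPKM of the 8 genes over zeitgeber time in livers of shifted and control mothers, with points for libraries and lines and bars for mean and SD (n = 3). Mt1 and Mt2 are highest at ZT18 in shifted mothers, where their means are 2130 and 1430 FPKM, against 435 and 271 FPKM in control mothers, in which Tsc22d3, Fkbp5, Mt1 and Mt2 all peak at ZT12.

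Among 20 other genes known to be induced by glucocorticoids, 1 of 19 tested, the clock gene Per1, changed over the day in shifted mothers and 8 of 20 in control mothers, beside 0.716% and 4.28% of all genes tested. The list was chosen with earlier results of these data known, so its counts are a description. Counts called within each arm are not a test of a difference between the arms. Those of smallest p in control mothers were Ddit4, an inhibitor of growth signalling, Per1 and Dusp1, a phosphatase. For the level over all times 3 of the 20 passed, beside 7.91% of all genes, with the cell cycle inhibitor Cdkn1a and the transcription factor Cebpd lower and the factor Klf15 higher in shifted mothers. Cdkn1a averaged 3.14 FPKM in shifted and 10.6 FPKM in control mothers (log2 difference -1.44, limma adjusted p = 0.00379). The median of the 20 was -0.12, beside 0 for all genes tested. None of the 10 receptor chaperones and partners, such as Hsp90ab1 and the coactivator Ncoa2, passed for level, nor did any of the zinc handling genes that were tested. Markers of endothelial cells moved with the schedule in mothers: 5 of 6 were lower, their summed level was 28.1 to 58.3 FPKM in shifted and 37.9 to 55.2 FPKM in control mothers, and their part in these results was not tested.

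In fetuses the comparison asked whether the schedule of the mother was mirrored in the unborn liver. Sgk1 was the 1 member of 8 that passed, against 3.78% of all genes tested, 2.31% as higher. It ranged over 5.66, 6.29 and 8.10 FPKM (lowest, median and highest) in shifted and 4.05, 5.19 and 6.63 FPKM in control fetuses, so that 11 of 12 shifted libraries were above the control mean of their time. The difference was 0.28 on the log2 scale (SE 0.06, 1.21-fold, limma adjusted p = 0.0153). No single library ended that call. It was lost without the 7 libraries low in hepatocyte markers, at 0.26 (SE 0.08, limma adjusted p = 0.172). Nr3c1 had 10.8 ± 1.27 FPKM in shifted and 9.08 ± 1.64 FPKM in control fetuses (difference 0.24, interval 0.08 to 0.40, limma adjusted p = 0.107). The other 6 genes had intervals that included 0, among them Hsd11b1 (-1.07 to 0.50) and Mt2 (-0.46 to 0.52).

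No member changed over the day in fetuses of either arm, and none differed in daily profile between the arms. Limma called 0 genes of all tested in these 3 comparisons. At an unadjusted p under 0.05 there were 600 genes over the day in shifted fetuses, 512 in control fetuses and 386 for the difference in profile.

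The 7 fetal libraries set apart here were chosen after seeing the data, by a mean log2(FPKM + 1) of hepatocyte markers under 10. The share of all genes that separated the same groups was not computed. The ranges below are therefore a description and are not shown to be particular to these members. Hsd11b1 had 12.8 to 25.4 FPKM in the 4 shifted and 17.9 to 28.2 FPKM in the 3 control libraries that were low in those markers. It had 64.4 to 125 FPKM in the other 8 shifted and 72.3 to 154 FPKM in the other 9 control libraries, with no overlap. Tat was at most 1.11 FPKM in the low libraries of either arm and at least 1.32 FPKM in the others. Fkbp5 was at most 18 FPKM in the low libraries and at least 20.5 FPKM in the others. Mt2 leaned the opposite way, at 1040 to 1940 FPKM in the low shifted libraries and 1530 to 3360 FPKM in the low control libraries. The other libraries had 421 to 1810 FPKM (median 836) in the shifted and 410 to 1500 FPKM (median 738) in the control arm. The ranges thus overlapped in shifted but not in control fetuses. Of 7 listed erythroid markers 4 were among the genes used, and their log2(FPKM + 1) was averaged per library and turned back to FPKM. This mean of the erythroid markers was 419 to 485 FPKM in the low shifted and 333 to 470 FPKM in the low control libraries. It was 216 to 326 and 229 to 329 FPKM in the other shifted and control libraries. Relations to it within the other libraries are given below, and its part as a cause was not tested. In whole tissue, fewer cells of a type and less RNA per cell cannot be told apart.

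Among the libraries that did not stand apart, some of these relations were called within each arm and others were not. Hsd11b1 followed the mean of 7 hepatocyte markers with Pearson's r = 0.91 in 8 shifted libraries (exact permutation p = 0.00144, adjusted 0.00921, rho = 0.90, exact p = 0.00456) and 0.97 in 9 control libraries (exact permutation p = 0.000116, adjusted 0.0037, rho = 0.93, exact p = 0.00075). Without the 2 libraries farthest from the median r was 0.90 and 0.95. Fkbp5 followed the same markers with r = 0.95 in shifted and 0.88 in control fetuses (adjusted exact permutation p = 0.00437 and 0.0184, rho = 0.93 and 0.80, adjusted 0.0292 and 0.0489), and 0.87 and 0.85 without the 2 farthest. Tat had r = 0.89 and 0.92 (adjusted exact permutation p = 0.00921 in both, rho = 0.74 and 0.87, adjusted 0.0815 and 0.0292), and 0.76 and 0.87 without the 2 farthest. These tests were two-sided and adjusted over 32 relations, 16 pairs of a gene and a marker list in 2 arms, and all values of a library share its RNA and its scaling. The permutations exchanged libraries across times of day. The share of all genes related to these markers was not computed, so the relations are not shown to be particular to these members. Tsc22d3 had r = 0.89 and 0.80 in shifted and control fetuses (adjusted exact permutation p = 0.0139 and 0.032, rho = 0.90 and 0.75, adjusted 0.0292 and 0.0544), and 0.75 and 0.69 without the 2 farthest. Sgk1, the member called between the arms, had r = 0.53 in shifted and 0.75 in control fetuses (adjusted exact permutation p = 0.245 and 0.045, rho = 0.45 and 0.73, adjusted 0.372 and 0.0622), and 0.60 and 0.64 without the 2 farthest. Mt2 was not called related to hepatocyte markers, with r = -0.41 in shifted and -0.46 in control fetuses (adjusted exact permutation p = 0.376 and 0.262), nor was Mt1, with r = -0.22 and -0.47. Without the 2 farthest libraries r was -0.58 and -0.78 for Mt2 and -0.40 and -0.78 for Mt1. Nor were they called with erythroid markers. There Mt2 had r = 0.52 and 0.72 (adjusted exact permutation p = 0.254 and 0.0577) and Mt1 0.36 and 0.71 (0.416 and 0.06). With erythroid markers Fkbp5 had r = -0.80 in shifted and -0.84 in control fetuses (adjusted exact permutation p = 0.0406 and 0.0248). Tat had -0.79 and -0.78 (0.0357 and 0.0406), Hsd11b1 -0.70 and -0.80 (0.0823 and 0.0357) and Tsc22d3 -0.82 and -0.68 (0.0357 and 0.0721). Sgk1 was not called (0.254 and 0.0672). Without the 2 farthest libraries r was -0.73 and -0.85 for Fkbp5 and -0.38 and -0.58 for Tat. It was -0.51 and -0.85 for Hsd11b1 and -0.92 and -0.85 for Tsc22d3. Nr3c1 was not called related to hepatocyte or erythroid markers in either arm (smallest adjusted exact permutation p = 0.204).

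**Figure D3:**
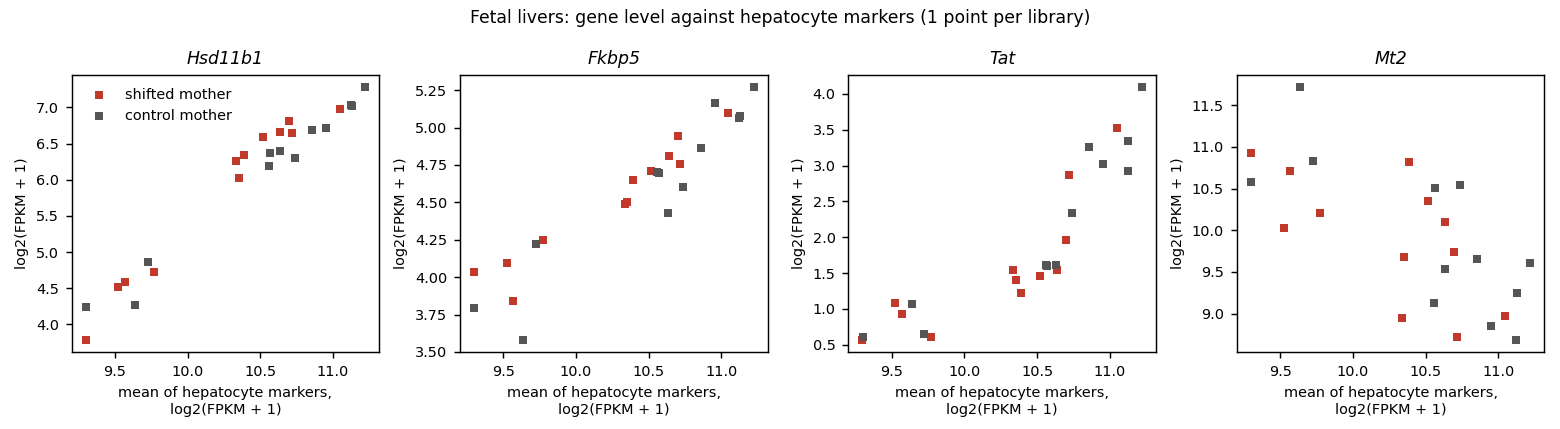
Level of Hsd11b1, Fkbp5, Tat and Mt2 against the mean of 7 hepatocyte markers, both as log2(FPKM + 1), 1 point per fetal library with shifted and control in different colours. The 7 libraries under 10 on the marker axis hold the lowest values of Hsd11b1, Fkbp5 and Tat, and Mt2 is mostly high there.

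The offspring comparisons asked whether the maternal schedule left a difference in adult liver, and whether diet changed it. On the low-fat diet, no member differed between offspring of shifted and control mothers, and limma called 1 gene in all (0.00921% of genes tested). Nr3c1 was 7.75 FPKM in shifted and 7.81 FPKM in control low-fat offspring, with an interval of -0.40 to 0.19 for the log2 difference. The intervals of Mt1 (-1.06 to 0.61) and Tsc22d3 (-0.17 to 0.83) were wide.

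On the high-fat diet Nr3c1 and Fkbp5 were higher, and Hsd11b1 lower, in offspring of shifted than of control mothers. That is 3 of the 8 genes, in a comparison that called 48.1% of all genes tested, 26.3% as higher and 21.9% as lower, so the count itself does not set these genes apart. Nr3c1 ranged over 7.16, 10.4 and 11.7 FPKM in shifted and 2.28, 5.95 and 7.93 FPKM in control high-fat offspring. All but 1 shifted library lay above the highest control library. The difference was 0.71 (SE 0.15, 1.63-fold, limma adjusted p = 0.000225, 11 of 12 libraries). It was 0.64 (limma adjusted p = 0.00042) without control ZT0 replicate 1, the library with many genes at 0, and 0.61 (limma adjusted p = 5.74e-07) without the 5 libraries of low correlation. Its size moved with the setting: it was 0.94 with the values as deposited and 0.44 with GC and length trends removed (limma adjusted p = 0.00317), and it was called under all 8 alternatives.

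The receptor's response to the maternal schedule depended on the diet. Its shifted minus control difference was 0.82 larger on the high-fat than on the low-fat diet (SE 0.21, limma adjusted p = 0.00609), and 24.2% of all genes passed that test, 13.9% in the positive direction. None of the 48 fits with a library left out ended the call, and the difference stayed between 0.64 and 0.94. It was called under all 7 other alternatives too, at 0.53 with GC and length trends removed (limma adjusted p = 0.0293), 0.55 without the 5 libraries of low correlation and 1 with the values as deposited. No other member passed, with intervals of -0.56 to -0.02 for Hsd11b1 (adjusted p = 0.123) and -1.44 to -0.04 for Tsc22d3 (adjusted p = 0.128).

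Fkbp5 ranged over 2.1, 6.2 and 11.8 FPKM in shifted and 1.27, 3.78 and 11.6 FPKM in control high-fat offspring, so the arms overlapped. Within single times they overlapped at ZT0 and ZT12, and at ZT6 and ZT18 all 3 shifted libraries were above the control libraries. The difference was 0.39 (SE 0.16, 1.31-fold, limma adjusted p = 0.0446, 11 of 12 libraries), and it was no longer called in 17 of 48 fits that left out a library nor without the 5 libraries of low correlation (0.35, adjusted p = 0.063), without the filter (adjusted p = 0.0757) or with GC and length trends removed (adjusted p = 0.0892). Hsd11b1 ranged over 257, 328 and 426 FPKM in shifted and 277, 409 and 472 FPKM in control high-fat offspring (-0.27, SE 0.10, limma adjusted p = 0.0241). That call rests on the scaling: with the values as deposited the difference was -0.01 (adjusted p = 0.961), with upper quartile scaling -0.16 (adjusted p = 0.272), and with GC and length trends removed -0.23 (adjusted p = 0.0747). It was also lost without any 1 of 3 libraries, control ZT0 replicate 1, control ZT18 replicate 3 or shifted ZT18 replicate 3 (adjusted p up to 0.065). Tat, Sgk1, Tsc22d3, Mt1 and Mt2 did not pass. Tsc22d3 had 43.1 ± 21.3 FPKM in shifted and 55.9 ± 23.4 FPKM in control high-fat offspring (-0.41, interval -0.90 to 0.09).

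The gene lists around the receptor are given as a description, since 48.1% of all genes passed in this comparison and nothing particular to a list was tested. Of 10 receptor chaperones and partners, 5 passed, 4 higher and 1 lower. The coactivator Ncoa2 averaged 3.82 FPKM in shifted and 1.91 FPKM in control high-fat offspring (0.75, limma adjusted p = 4.94e-07), the corepressor Ncor1 7.07 and 5.11 FPKM, and the mineralocorticoid receptor gene Nr3c2 1.37 and 0.662 FPKM. Of the 20 other glucocorticoid-induced genes, 7 passed, 5 higher and 2 lower, among them the transcription factor Klf9 at 11.2 FPKM in shifted and 5.06 FPKM in control offspring (1.11, limma adjusted p = 2.09e-05). Tdo2, which starts tryptophan breakdown, had 728 FPKM in shifted and 402 FPKM in control offspring (0.95, limma adjusted p = 0.000132), and Cebpb had 15.1 and 29.3 FPKM (-0.81, limma adjusted p = 0.00439). The median of the 20 was 0.16, beside 0.01 for all genes tested. Of 7 zinc handling genes tested, 6 were higher, such as the zinc exporter Slc30a1 at 6.17 FPKM in shifted and 4.34 FPKM in control offspring (0.43, limma adjusted p = 0.00422), while Mt1 and Mt2 did not pass.
Hepatocyte and endothelial markers gave counts near the share of all genes called. Of 7 hepatocyte markers 3 passed, 1 higher and 2 lower, and of 6 endothelial markers 3 passed, all lower. The summed hepatocyte markers were 34100 to 54600 FPKM in shifted and 44300 to 71500 FPKM in control high-fat offspring, and the part of cell composition was not tested.

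Diet was compared within each maternal schedule. Among offspring of control mothers, Fkbp5 was lower on the high-fat diet, 1 of 8 genes against 14.5% of all genes, 7.82% as lower. It ranged over 1.27, 3.78 and 11.6 FPKM on high-fat and 3.31, 5.54 and 16.2 FPKM on low-fat diet, and every one of the 12 high-fat libraries was below the low-fat mean of its time (-0.53, SE 0.16, limma adjusted p = 0.0268). Without low-fat ZT0 replicate 3, ZT12 replicate 2 or ZT18 replicate 2 the call was lost, with adjusted p up to 0.0598. Nr3c1 had 5.85 ± 1.49 FPKM on high-fat and 7.81 ± 1.56 FPKM on low-fat diet (-0.38, interval -0.68 to -0.09, limma adjusted p = 0.0793), and passed with the values as deposited (-0.49, adjusted p = 0.0241) and without the 5 libraries of low correlation (-0.30, adjusted p = 0.0125). Tsc22d3 leaned the other way, at 55.9 ± 23.4 FPKM on high-fat and 42.0 ± 26.0 FPKM on low-fat diet. Its difference of 0.61 (interval 0.11 to 1.10) did not pass (limma adjusted p = 0.0959). It passed without low-fat ZT6 replicate 1 (limma adjusted p = 0.0169) or high-fat ZT12 replicate 1 (0.0406).

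Among offspring of shifted mothers, Nr3c1 was higher on the high-fat diet, 1 of 8 genes against 23.2% of all genes, 11.5% as higher. It ranged over 7.16, 10.4 and 11.7 FPKM on high-fat and 1.2, 6.99 and 13 FPKM on low-fat diet (0.43, SE 0.15, limma adjusted p = 0.0328). The lowest value belongs to low-fat ZT0 replicate 1, 1 of the 5 libraries of low correlation. Without it the difference was 0.26 (limma adjusted p = 0.0591), and without all 5 it was 0.25 (SE 0.08, adjusted p = 0.0192). The call was also lost with upper quartile scaling (adjusted p = 0.0675), when no filter was applied (adjusted p = 0.0555), with GC and length trends removed (0.27, adjusted p = 0.115) and with only the 2 arms fitted (adjusted p = 0.0557). Leaving out any 1 of 6 further libraries also ended the call (low-fat ZT6 replicate 1 and ZT12 replicate 1, high-fat ZT6 replicate 2, ZT12 replicate 1 and ZT18 replicates 1 and 3). Mt1 and Mt2 had 14.0 ± 11.1 and 4.36 ± 3.27 FPKM on high-fat, against 33.7 ± 29.2 and 13.8 ± 13.9 FPKM on low-fat diet. Their differences of -0.96 and -0.96 did not pass (limma adjusted p = 0.103 and 0.0643), but did with only the 2 arms fitted (adjusted p = 0.036 and 0.00972).

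**Figure D4:**
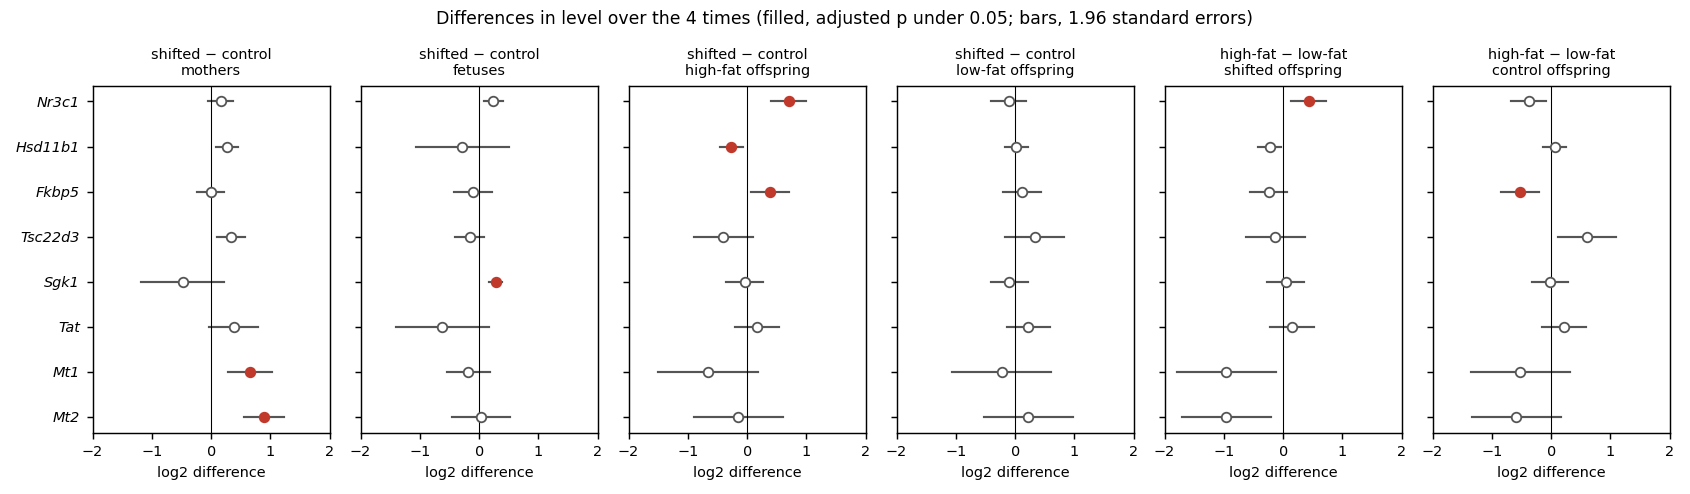
Log2 differences in level over the 4 times for the 8 genes in 6 comparisons, with bars for approximate 95% intervals and filled points where the limma adjusted p is under 0.05. Mt1 and Mt2 pass in mothers, Sgk1 in fetuses, and Nr3c1 in high-fat offspring, where it stands at 0.71, and none passes in low-fat offspring.

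Over the day, Fkbp5 was the member called in both high-fat arms of the offspring, with its maximum at ZT12. Fkbp5 had 2.1, 3.29 and 2.81 FPKM at ZT0, 4.91, 4.71 and 7.59 at ZT6, 11.8, 8.76 and 11 at ZT12, and 6.03, 6.37 and 6.75 at ZT18 in shifted high-fat offspring (limma adjusted p = 0.00061). All 3 libraries of ZT12 were above those of every other time. In control high-fat offspring it had 1.27, 2.25 and 2.84 FPKM at ZT0, 4.12, 3.68 and 4.10 at ZT6, 6.61, 8.80 and 11.6 at ZT12, and 3.79, 3.56 and 3.77 at ZT18 (limma adjusted p = 0.023, lost in 8 of 12 fits without a library, with adjusted p up to 0.0922, and with upper quartile scaling, adjusted p = 0.148). Its mean profile on low-fat diet was 3.61, 6.25, 9.64 and 13.1 FPKM over ZT0 to ZT18 in shifted and 4.71, 5.22, 13.3 and 5.71 FPKM in control offspring, and neither passed (adjusted p = 0.0691 and 0.0503).

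Tsc22d3 changed over the day in offspring of shifted mothers on both diets. On low-fat diet it had 34.3, 24.9 and 23.7 FPKM at ZT0, 7.09, 27.0 and 33.9 at ZT6, 76.1, 77.6 and 49.6 at ZT12, and 73.3, 140 and 84.9 at ZT18 (limma adjusted p = 0.0129). On high-fat diet the adjusted p was 0.0425, and it was lost in 8 of 12 fits without a library and without the filter (adjusted p = 0.0898). Nr3c1 changed in the same arm (adjusted p = 0.0407, lost in 10 of 12 and with GC and length trends removed, adjusted p = 0.137), with means of 10.7, 10.8, 9.91 and 8.41 FPKM over ZT0 to ZT18. Mt1 and Mt2 changed over the day in shifted low-fat offspring (limma adjusted p = 0.00879 and 0.0025). There Mt2 had 2.13, 1.70 and 1.33 FPKM at ZT0, 38.8, 28.1 and 22.9 at ZT6, 3.14, 4.17 and 4.26 at ZT12, and 32.7, 20.9 and 5.40 at ZT18. It was thus high at 2 of the 4 times, and a fit of a single daily cosine did not pass (limma adjusted p = 0.667, and 0.241 for Mt1).

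These are 3 of 8 genes over the day in shifted low-fat offspring (23.1% of all genes called), 0 of 8 in control low-fat offspring (14.1%), 3 of 8 in shifted high-fat offspring (30.2%) and 1 of 8 in control high-fat offspring (0.753%). No member's profile was called different by maternal schedule on the low-fat diet (0.046% of all genes), by maternal schedule on the high-fat diet (0% of genes, 804 at an unadjusted p under 0.05), by diet in control offspring (0.0276%) or by diet in shifted offspring (0.157%), by limma in each case. The differences in which arms passed are therefore not shown to be differences between arms.

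**Figure D5:**
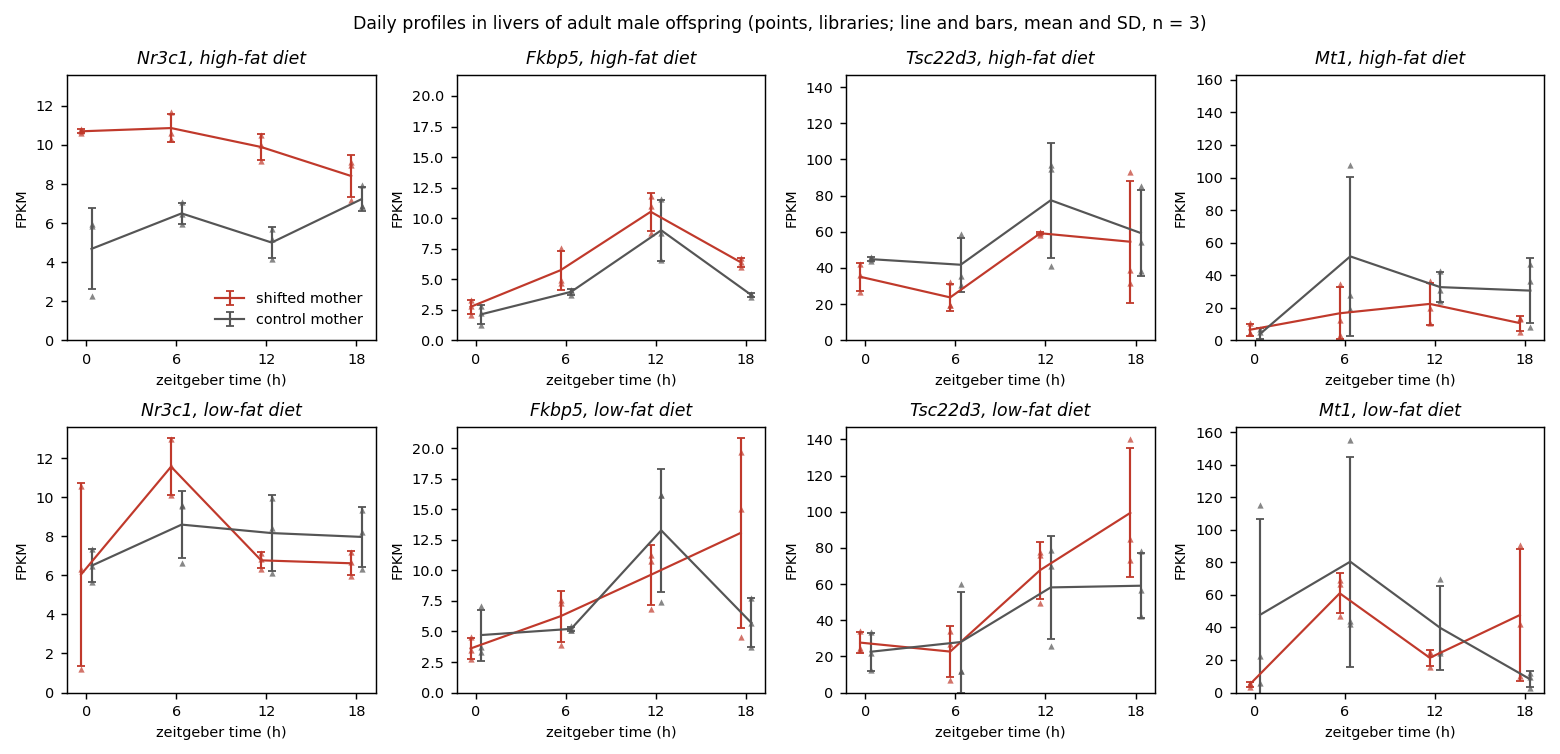
FPKM of Nr3c1, Fkbp5, Tsc22d3 and Mt1 over zeitgeber time in offspring of shifted and control mothers, with the high-fat diet above the low-fat diet, points for libraries and lines and bars for mean and SD (n = 3). Nr3c1 of shifted high-fat offspring lies above that of control high-fat offspring at ZT0, ZT6 and ZT12, and Fkbp5 is highest at ZT12 in both high-fat arms.

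The profiles of Mt1 and Mt2, neighbours on chromosome 8, were alike. With each arm centred on its mean, Mt2 was the gene most like Mt1 over the 24 mother and offspring groups among 9106 genes (Pearson's r = 0.91, as a description), followed by Zfp629 (0.89) and Plac8 (0.88). Their ratio was less constant across stages. Mt1 over Mt2 had a median of 1.52 in shifted and 1.73 in control mothers and 1.31 and 1.65 in shifted and control fetuses, but 2.79 and 4.83 in shifted and control high-fat and 2.68 and 4.14 in shifted and control low-fat offspring. The genes most like Fkbp5 were St3gal5 (0.94), Crcp (0.93) and Aifm2 (0.92), and those most like Tsc22d3 were Fgf1 (0.97), Coa6 (0.95) and Fam195a (0.95). Fkbp5 and Tsc22d3 had r = 0.66 with each other, whereas Tsc22d3 had 0.01 with Mt1. Groups of 1 arm share their libraries' table and scaling, so no p is given.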

How the data were processed

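The authors deposited 8 tables of FPKM values, 1 per arm, made with TopHat2 2.1.1 and Cufflinks 2.2.1 on mm10, per the submitters' processing notes. The sources used here name no annotation or filter. TruSeq stranded mRNA libraries were made, per the labels' protocols. Symbols on several entries (280 symbols, 817 of 24883 entries) were left out. All 96 columns were used.

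FPKM were divided by median-of-ratios factors within mothers, fetuses or offspring, filtered (at least 1 FPKM in at least 3 libraries) and tested as log2(FPKM + 1) in limma 3.58.1 (R 4.3.3). Level and profile tests used all libraries of a stage with 1 mean per arm and time, and each arm alone was tested for an effect of time (F test). The threshold was a Benjamini-Hochberg adjusted p of 0.05 over all genes, across 25 comparisons. Fits were tested on simulated data. Replicate numbers were not used to pair libraries. A difference between arms is also one between tables. Members and gene lists were chosen with earlier results of these data known. Named genes are the 8 members, up to 3 called genes of smallest p per list and the 3 most similar profiles. Figures and permutations used Python 3.11.15.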

Additional observations from a re-analysis of the deposited data

Results flagged for a closer look

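The response of Nr3c1 to the maternal schedule differed between diets: its shifted minus control difference was 0.82 larger on the log2 scale on the high-fat than on the low-fat diet, by a test of that difference itself. The daily profile of Mt2 differed between shifted and control mothers, by a test of the interaction of time and schedule in limma with an adjusted p of 0.00424.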

How the results depend on the processing

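Of 181 counts of called members under other settings, 158 stayed within 1.5 times the reported count, and with 1 library left out 645 of 720 did. A stable count can hold different genes: for level in mothers, removing GC and length trends lost Mt1 (0.58, adjusted p = 0.0576) and gained Tsc22d3 (adjusted p = 0.0473). In mothers, level counts fell to 1 without the filter and as deposited, and ZT0 counts to 1 without the filter or with GC and length trends removed, which gave 3 for the profile by adding Tsc22d3 and Mt1. In high-fat offspring by maternal schedule, removing those trends left 1. By diet, control offspring gave 2 as deposited and without the 5 libraries of low correlation, by adding Nr3c1. Shifted offspring gave 0 without the filter, with upper quartile scaling and with GC and length trends removed, 2 when only their arms were fitted (Mt1 and Mt2, with Nr3c1 lost), and 3 without the 5 libraries (Nr3c1, Hsd11b1 and Mt2). Over the day, a cosine left 1 in shifted low-fat offspring. Control low-fat offspring gained 1 with a cosine, GC and length removal or without the 5 libraries. No filter left 1 in shifted high-fat and 0 in control high-fat offspring, where upper quartile scaling also left 0. Leaving out the 7 fetal libraries, chosen after seeing the data, left 0 in fetuses.

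Libraries of the same replicate number in different groups had a mean correlation of -0.026 in mothers, 0.015 in fetuses and 0.005 in offspring. Single pairs ranged from -0.58 to 0.68 in mothers, so these means cannot exclude pairing. Pairs of a mother and a fetus library were not examined. Under the replicate block 23 of 25 called member results stayed called. Mt1 in mothers (0.66, adjusted p = 0.0562) and Nr3c1 over the day in shifted high-fat offspring (adjusted p = 0.068) were lost, leaving 1 member for level in mothers. Tsc22d3 was gained for profile (adjusted p = 0.0433), giving 2. These p-values are from limma.

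With 1 library left out, counts ranged from 1 to 3 for level in mothers, 1 to 2 in fetuses, 1 to 3 in high-fat offspring, 0 to 2 by diet in control and 0 to 4 by diet in shifted offspring, and 1 to 2 for schedule by diet. They were 1 to 3 for profile in mothers, 0 to 2 at ZT0, 3 to 6 over the day in control mothers, 3 to 4 in shifted low-fat, 0 to 2 in control low-fat, 1 to 4 in shifted high-fat and 0 to 1 in control high-fat offspring.

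Differences that changed sign were not called in either setting. Fkbp5 in mothers became 0.01 (upper quartile) and 0.05 (GC and length), and Mt1 in fetuses 0.02 without the 7 libraries. Without the 5 libraries, low-fat offspring gave Nr3c1 0.06, Hsd11b1 -0.05, Sgk1 0.00 and Mt1 0.06. In high-fat offspring Mt2 became 0.03 (pseudocount 0.1), 0.05 (as deposited) and 0.22 (GC and length), and Sgk1 0.17 (as deposited), 0.04 (upper quartile) and 0.06 (without the 5 libraries). Hsd11b1 by diet in control offspring became -0.07, -0.05 and -0.03 (as deposited, upper quartile, without the 5 libraries), and Tat for schedule by diet 0.15, 0.06 and 0.01 (as deposited, upper quartile, GC and length). At ZT12 in mothers Nr3c1 became 0.01 (as deposited and upper quartile) and Tat 0.01 (upper quartile). With 1 library left out, these uncalled differences also crossed 0. In mothers Fkbp5 ranged from -0.06 to 0.06, at ZT0 Tat from -0.27 to 0.88 and Sgk1 from -1.84 to 0.08, and at ZT12 Tat from -0.17 to 0.15, Nr3c1 from -0.14 to 0.06 and Hsd11b1 from -0.13 to 0.00. Mt2 in fetuses ranged from -0.09 to 0.16. In low-fat offspring Mt2 ranged from -0.05 to 0.55, Hsd11b1 from -0.06 to 0.08, Mt1 from -0.47 to 0.04 and Nr3c1 from -0.23 to 0.07. In high-fat offspring Sgk1 ranged from -0.18 to 0.04 and Mt2 from -0.30 to 0.06. By diet, control offspring gave -0.02 to 0.10 for Hsd11b1 and -0.11 to 0.07 for Sgk1, and shifted offspring -0.10 to 0.11 for Sgk1. For schedule by diet Sgk1 ranged from -0.08 to 0.14 and Tat from -0.16 to 0.04. The causes were not tested. Depth is unknown, so what it limits cannot be stated.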
